A study of Mus musculus with 56 samples.

Results

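Adipokines are hormones that fat tissue secretes into the blood, where they report on energy stores to the brain, liver, muscle and vessels. Leptin (Lep) signals the size of the fat store and lowers food intake, adiponectin (Adipoq) favours insulin sensitivity, and apelin (Apln), chemerin (Rarres2), resistin (Retn), retinol-binding protein 4 (Rbp4) and angiotensinogen (Agt) act on vessels, immune cells and glucose use. Several of them are known to follow feeding or insulin, so a change of mealtime is a natural test of their transcripts. The members were chosen by name from a list of 8 symbols that also held omentin (Itln1). Of these, 7 had a row among the 25939 genes of the table, and Itln1 was not analysed here.

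RNA was measured in visceral adipose tissue (VAT) of 56 female C57BL/6J mice aged 9 weeks. After 7 days of free access to chow under 12 h of light and 12 h of darkness, the mice were fed for 7 days either only by day (daytime-restricted feeding, DRF) or only by night (nighttime-restricted feeding, NRF, the control). For each regimen, 4 mice were sampled every 4 h from ZT0 (zeitgeber time, hours after lights on) to ZT24. All mice carried the same genotype, and both regimens restricted the hours of feeding, so neither group stands for free feeding.

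Each library held 31144102 to 41246347 recovered reads, with a median of 35541820, and values are given as reads scaled by library size (CPM). All 8 adipocyte markers, among them perilipin 1 (Plin1) and Fabp4, were present in all libraries. Epithelial markers listed for uterus and oviduct (Epcam, Cdh1 and others, 7 genes) summed to 528 CPM in DRF ZT8 replicate 1 and to 1224 CPM in DRF ZT0 replicate 4, against at most 85.5 CPM in the other 54 libraries. Of the listed genes, Wfdc2 was at 84.7 and 292 CPM there and Ovgp1 at 0.881 and 1.2 CPM, and the organ was not identified. The adipocyte markers of these libraries summed to 10241 and 17233 CPM, against a median of 24806 CPM in the other 54. Calls on the members that changed without these libraries are given with and without them. In such whole-tissue RNA, fewer adipocytes and less RNA per adipocyte cannot be told apart.

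Compared per length (RPKM, CPM per kb of exon), Adipoq was the most abundant member, with a lowest value of 742, a median of 1994 and a highest of 2730 RPKM over the 56 mice. Retn followed with a median of 1257 RPKM, Rbp4 with 573 and Lep with 201. Agt had a median of 42.8 RPKM, Rarres2 of 35.8 and Apln of 7.87. Adipoq stood above Retn in 55 of 56 mice, Retn above Rbp4 in 56, Rbp4 above Lep in 54, Lep above Agt in 54 and Rarres2 above Apln in 56. Agt stood above Rarres2 in 37 of 56 mice, so the order of these neighbours was not stable from mouse to mouse. Lep ranged from 43.6 to 833 RPKM.

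**Figure D1:**
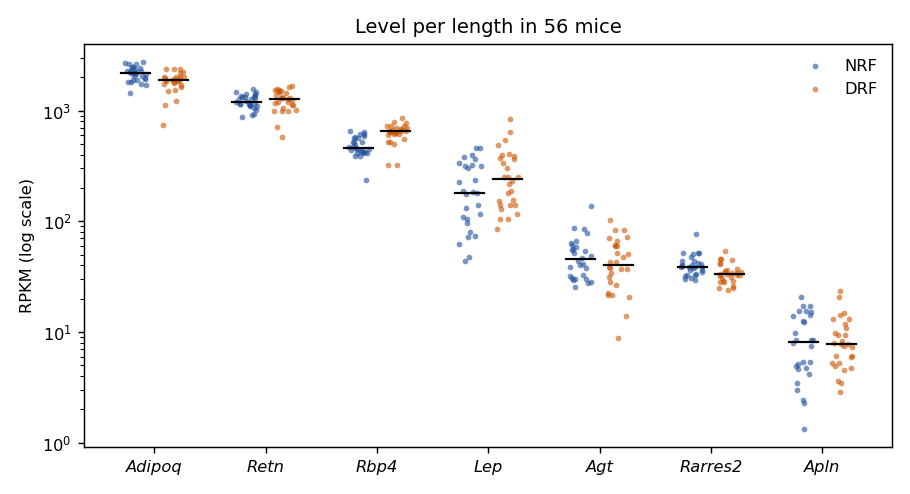
Level per length of the 7 members in 56 mice. Each point is 1 mouse (NRF blue, DRF orange), the short lines are medians per regimen, and the RPKM axis is logarithmic. Adipoq, Retn and Rbp4 lie highest and Apln lowest, while the points of Agt and Rarres2 overlap.

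Lep (ENSMUSG00000059201, chr6:29060220-29073877, + strand, GRCm38) and Apln (ENSMUSG00000037010, chrX:48025146-48034853, - strand) had daily profiles that resembled each other more than those of any other member pair, with a Pearson r of 0.95 across the 14 group means of log2(CPM + 1). The 14 points share libraries and scaling, so this is a description. The 250 bases before the RefSeq start (GRCm38.p6) of these genes are shown because the pair moved together. Capitals mark matches on either strand to letters searched in the window, namely GGGCGG (GC box) and TATAA (TATA box). GGGCGG was held by 32.7% and TATAA by 22.8% of the 32851 RefSeq promoter windows of the same length.
Lep, chr6:29059971-29060220, + strand: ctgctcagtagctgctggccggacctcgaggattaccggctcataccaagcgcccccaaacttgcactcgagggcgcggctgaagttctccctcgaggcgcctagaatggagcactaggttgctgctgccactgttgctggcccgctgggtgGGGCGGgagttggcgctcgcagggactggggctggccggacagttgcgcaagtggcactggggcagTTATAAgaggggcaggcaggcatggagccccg
Apln, chrX:48034854-48035103, - strand: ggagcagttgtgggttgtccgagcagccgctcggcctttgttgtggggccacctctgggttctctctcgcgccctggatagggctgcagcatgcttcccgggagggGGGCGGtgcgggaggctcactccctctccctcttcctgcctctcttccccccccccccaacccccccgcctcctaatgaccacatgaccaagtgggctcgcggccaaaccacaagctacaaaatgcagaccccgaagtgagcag

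In Lep the GC box began 98 bases before the start and the TATAA match 31 bases before it, where the reverse complement TTATA overlaps it by 4 bases. In Apln the GC box began 144 bases before the start, and TATAA was not among the letters of the window. Neither window held the E-box CACGTG, the nuclear receptor half-site AGGTCA, the FOXO site GTAAACA or the CCAAT box, whose letters are its name, on either strand. These letters were in 6.02%, 14%, 3.17% and 33.8% of all windows. The motifs were chosen after the windows were seen, and the matches are descriptions of sequence and not sites of binding.

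Under NRF, Lep was low by day and high by night, and under DRF the profile was turned over. At ZT8, during the light phase, Lep was at 209, 158, 393 and 146 CPM in the NRF mice and at 473, 775, 2795 and 1134 CPM in the DRF mice. Every DRF mouse lay above every NRF mouse, and the lowest DRF value was that of the library with epithelial markers. The difference at ZT8 was 2.31 ± 0.41 (SE) on the log2 scale, a 4.95-fold higher level under DRF (adjusted p = 7.28e-05 in limma), and it was 2.69 ± 0.42 without the libraries with epithelial markers. At ZT4 the DRF mice had 1347, 1834, 1311 and 2154 CPM and the NRF mice 611, 348, 326 and 269 CPM. The groups did not overlap, and the level was 4.39-fold higher under DRF (log2 difference 2.13 ± 0.41, adjusted p = 0.000187). At ZT12, the end of the light phase, the DRF values of 1212, 1327, 1637 and 835 CPM were all above the NRF values of 245, 241, 371 and 466 CPM. The log2 difference was 1.94 ± 0.41 (adjusted p = 0.000684).

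At night the order reversed. At ZT16, 4 h into darkness, Lep was at 850, 526, 350 and 465 CPM under DRF and at 1115, 1071, 1057 and 1289 CPM under NRF. All NRF mice lay above all DRF mice, although the log2 difference of -1.12 ± 0.41 missed the threshold (adjusted p = 0.0784). It was called without the libraries with epithelial markers (0.0468), at a minimum of 1 CPM (0.0472) and with scaling by library totals (0.0494). At ZT20 the values were 284, 351, 625 and 720 CPM under DRF and 607, 1322, 1533 and 1076 CPM under NRF. These groups overlapped at their edges, and the log2 difference of -1.22 ± 0.41 passed the test (adjusted p = 0.0417). The call was lost when any replicate number was left out and on the deposited values (adjusted p = 0.0824). At ZT0 the DRF mice had 840, 1012, 509 and 432 CPM and the NRF mice 624, 1538, 796 and 588 CPM, and at ZT24 they had 465, 388, 1247 and 607 CPM and 438, 1227, 765 and 1017 CPM. No difference was detected at either end of the day, with log2 differences of -0.32 and -0.40.

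A 24-h rhythm of Lep was detected under NRF (adjusted p = 2.32e-06) and under DRF (adjusted p = 0.0244), by JTK_CYCLE and Lomb-Scargle combined. Rhythm calls below are by this combined test unless the cosine test is named, while peaks and amplitudes come from the cosine fit. The cosine fit placed its peak at ZT19.8 ± 0.476 h (SE) under NRF and at ZT7.22 ± 0.703 h under DRF. The peak shifted by 11.4 ± 0.849 h (adjusted p = 1.47e-16). The fitted amplitude was 1.28 ± 0.17 on the log2 scale under NRF, a 5.92-fold range from trough to peak, and 0.86 ± 0.17 under DRF, a 3.28-fold range. The amplitudes differed by -0.43 ± 0.25, which was not called (adjusted p = 0.565). The group means rose most steeply from ZT12 to ZT16 under NRF, from 331 to 1133 CPM, and from ZT0 to ZT4 under DRF, from 698 to 1662 CPM. The call under DRF was lost without any single replicate number (adjusted p of 0.0786 to 0.429), without ZT24 (0.0804) and on the deposited values (0.0506). Without the libraries with epithelial markers it was kept (0.00237).

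Apln, the ligand of the apelin receptor, followed the same course at a far lower level. At ZT8 it stood at 7.67, 4.23, 16.8 and 7.15 CPM under NRF and at 30.8, 29.4, 26.3 and 44.6 CPM under DRF. The groups did not overlap, and the level was 3.67-fold higher under DRF (log2 difference 1.88 ± 0.34, adjusted p = 9.48e-05). At ZT4 the DRF mice had 73.3, 46.7, 64.8 and 37.3 CPM against 15.6, 14.7, 10.9 and 16.1 CPM under NRF, again without overlap (log2 difference 1.85 ± 0.34, adjusted p = 0.000107). At ZT12 the values were 40.9, 23.3, 34.3 and 41.3 CPM under DRF and 9.32, 16.8, 14.6 and 26.6 CPM under NRF, which overlapped in 1 mouse of each group. The log2 difference there was 1.07 ± 0.34 (adjusted p = 0.0259), and was not called without replicates 1, 2 or 3 in turn.

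The night values of Apln were reversed. At ZT20 all NRF mice, with 65.0, 48.4, 39.5 and 44.2 CPM, lay above all DRF mice, with 15.4, 24.5, 16.5 and 14.3 CPM. The log2 difference was -1.43 ± 0.34, a 2.70-fold lower level under DRF (adjusted p = 0.00264). At ZT16 the DRF values were 11.4, 18.6, 24.4 and 19.3 CPM and the NRF values 38.9, 48.9, 26.5 and 54.3 CPM, without overlap (log2 difference -1.15 ± 0.34, adjusted p = 0.0242), a call lost without replicates 1, 2 or 4 in turn. At ZT24 the DRF mice, with 19, 16.5, 11.0 and 23.6 CPM, lay just below the NRF mice, with 23.7, 25.0, 48.3 and 53.5 CPM. This last difference of -1.02 on the log2 scale (adjusted p = 0.0459) was not called without replicates 2, 3 or 4 in turn (adjusted p of 0.109 to 0.321, and -0.67 without replicate 3) or on the deposited values (0.067). It was -0.82 (0.177) without NRF ZT24 replicate 4 alone, a library with liver transcripts described with Rbp4. At ZT0 the log2 difference of -0.54 ± 0.34 was not called.

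The rhythm of Apln was called under NRF (adjusted p = 5.88e-06) and under DRF (adjusted p = 0.00618), the latter not without replicates 1, 3 or 4 in turn (0.0805 to 0.237). Its peak lay at ZT19.5 ± 0.430 h under NRF and at ZT7.46 ± 0.706 h under DRF, 12.0 ± 0.826 h apart (adjusted p = 1.13e-17). The amplitude was 1.22 ± 0.15 under NRF and 0.74 ± 0.15 under DRF, a difference of -0.48 ± 0.21 that was not called (adjusted p = 0.350). Unlike Lep, Apln did not pass the test for a different 24-h mean (log2 difference 0.20 ± 0.14, 95% interval -0.08 to 0.48, adjusted p = 0.350).

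**Figure D2:**
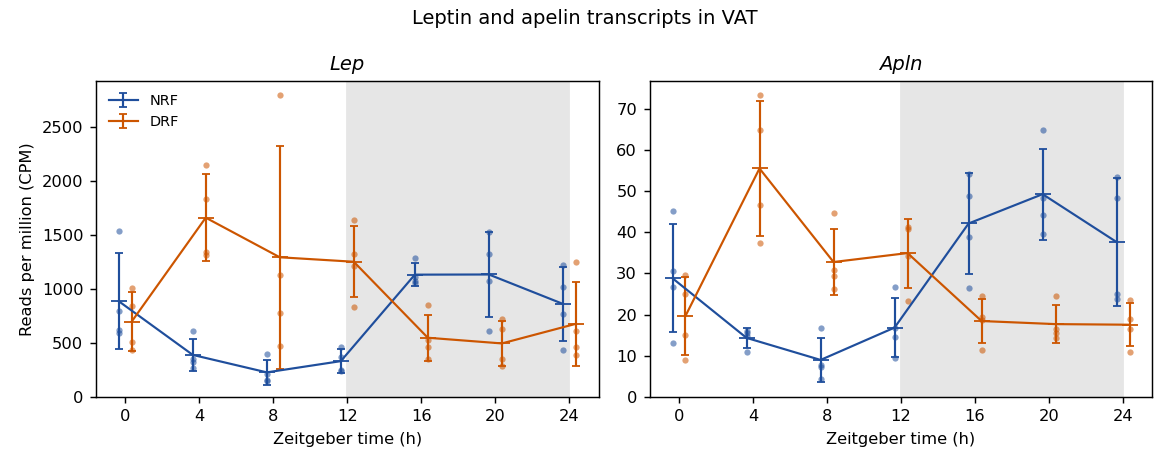
Lep and Apln in VAT. Points are single mice (NRF blue, DRF orange) against zeitgeber time, lines join group means, bars are SD (n = 4) and grey marks darkness. Both transcripts are high at night under NRF and by day under DRF.

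Over the members, 2 of 7 were rhythmic under NRF (Lep and Apln), beside 26.1% of all genes tested, and 3 of 7 under DRF (Lep, Apln and Adipoq), beside 15.3%. Of all genes, 9.63% were rhythmic under both regimens, as Lep and Apln were, and 80.1% of those shifted by 8 h or more. The 24-h profile itself differed between regimens, by the joint test of the cosine and sine terms, for 4 of 7 members, beside 36.0% of all genes. These were Apln (adjusted p = 1.21e-10), Lep (7.26e-10), Agt (0.00552) and Adipoq (0.0245). The shift of the fitted peak was called for 5 of 7 members, beside 42.5% of all genes. Of these, Agt and Rarres2 had no rhythm called in either regimen by the combined test. Adipoq had none called under NRF, by the combined test or the cosine test (adjusted p = 0.418). Their shifts are therefore measured between fitted peaks of which not all belong to a called rhythm. The cosine fit of Agt under DRF passed its own test (adjusted p = 0.0122), and without replicate 3 the combined test called Agt (0.0268) and Rarres2 (0.0208) under DRF. The shift of Rarres2, -8.05 ± 2.63 h, was lost without replicate 2 (-4.16 h, adjusted p = 0.485) or replicate 4 (-7.19 h, 0.0642). An amplitude difference was called for 0 of 7 members by the fitted cosine model, beside 1.44% of all genes.

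Fewer differences were called when the regimens were compared 12 h apart than at the same clock time. DRF mice at one time point were compared with NRF mice 12 h away, with ZT0 and ZT24 averaged. At the same clock time, 15 of 49 pairs of member and time point were called, beside 13.9% of such pairs over all genes, and at times 12 h apart 2 of 42 were called, beside 7.05%. At the same clock time the members called were 0 at ZT0 (beside 10.5% of all genes), 4 at ZT4 (19.5%), 5 at ZT8 (16.5%), 2 at ZT12 (16.1%), 1 at ZT16 (9.97%), 2 at ZT20 (13.1%) and 1 at ZT24 (11.3%), by limma. For Lep, the DRF mice at ZT8 and the NRF mice at ZT20 differed by -0.05 ± 0.41 on the log2 scale, with a 95% interval of -0.88 to 0.79. Without the libraries with epithelial markers this difference was 0.33 ± 0.42. With all libraries and genes, the 6 contrasts of Lep ran from -0.05 to 1.14, 5 of them above 0, and none was called by limma. The largest, at DRF ZT20 against NRF ZT8 (adjusted p = 0.072), was called at a minimum of 1 CPM (0.0445) and without replicate 1 (1.37, 0.0411). Without the libraries with epithelial markers, Lep was called at DRF ZT0 and ZT24 against NRF ZT12 (1.09, adjusted p = 0.0397) and at DRF ZT20 against NRF ZT8 (1.14, 0.0436), both higher under DRF. With the contrasts that Rbp4 gained, 6 of 42 pairs were then called, all higher under DRF, beside 5.27% of such pairs over all genes called in that direction, and 15579 of 155628 called in either. The called pairs with all libraries were Rbp4 and Apln at DRF ZT20 against NRF ZT8, where 9.69% of all genes were called. Apln was higher by 1.02 ± 0.34 there (adjusted p = 0.0492), a call that was lost without replicates 1, 2 or 4 in turn (0.60 and 0.618 without replicate 2). It was also lost on the deposited values (0.0648), with scaling by library totals (0.91, 0.0687) and with no intensity trend (0.0524).

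**Figure D3:**
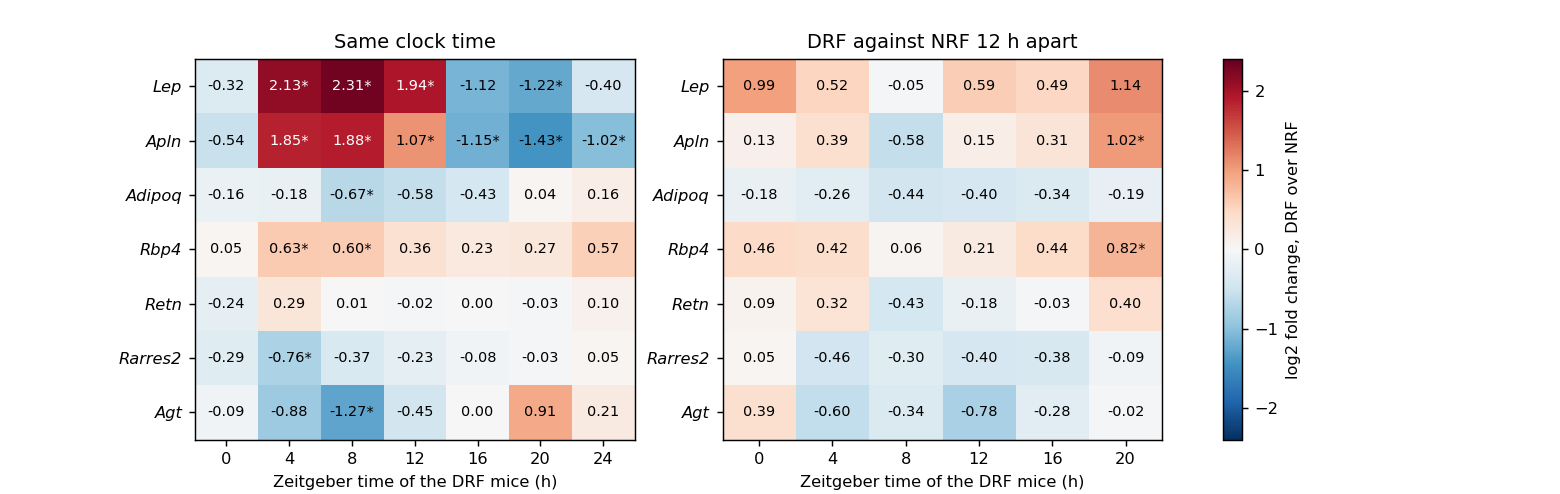
Differences between regimens for 7 members. Colours and numbers give the log2 fold change of DRF over NRF at the same clock time (left) and against NRF mice 12 h away (right, where 0 stands for the mean of ZT0 and ZT24); an asterisk marks an adjusted p under 0.05. Lep and Apln change sign between day and night on the left, and on the right 2 cells carry an asterisk.

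The mean over 24 h differed between regimens for 4 of 7 members, beside 21.7% of all genes. Lep and Rbp4 were higher under DRF, and 11.4% of all genes were. Adipoq and Rarres2 were lower under DRF, and 10.3% of all genes were. Lep had the largest difference, 0.60 ± 0.16 on the log2 scale or 1.51-fold (adjusted p = 0.00506). Its lowest, median and highest values were 284, 805 and 2795 CPM over the 28 DRF mice and 146, 609 and 1538 CPM over the 28 NRF mice. The regimens overlapped widely, and the fitted means carry the swing of the day in both.

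Adipoq (ENSMUSG00000022878, chr16:23146536-23158028, + strand) encodes adiponectin, which circulates at higher concentration than most hormones. Its 24-h mean was lower under DRF by 0.31 on the log2 scale (-0.31 ± 0.08, adjusted p = 0.00524), with a lowest, median and highest value of 1025, 2588 and 3295 CPM under DRF and 2001, 3041 and 3770 CPM under NRF. The 1025 CPM belonged to DRF ZT8 replicate 1, whose adipocyte markers were the lowest of all libraries. Without the libraries with epithelial markers the difference was -0.23 ± 0.06 (adjusted p = 0.00341). The fitted differences were lowest from ZT8 to ZT16. At ZT12 the DRF mice had 1695, 2235, 2138 and 2072 CPM and the NRF mice 3434, 2863, 3037 and 2838 CPM. At ZT16 they had 2367, 2478, 2440 and 2559 CPM against 3130, 3416, 3614 and 3101 CPM. The groups did not overlap at these times, yet neither difference passed the test, with log2 differences of -0.58 ± 0.23 (adjusted p = 0.0702) and -0.43 ± 0.23 (0.261). The ZT12 difference was called without the libraries with epithelial markers (adjusted p = 0.00839), and with all libraries at a pseudocount of 0.1 CPM, a minimum of 1 CPM, scaling by library totals or no intensity trend (0.0235 to 0.047).

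At ZT8 Adipoq was called lower under DRF (-0.67 ± 0.23, adjusted p = 0.0341), with 1025, 2662, 2594 and 2408 CPM against 2584, 3717, 3127 and 3612 CPM. Without the epithelial libraries the difference was -0.34 ± 0.18 (adjusted p = 0.192), and the call was also lost on the deposited values (0.0555) and without replicates 1, 2, 3 or 4 in turn (-0.45 to -0.80, 0.0575 to 0.214). A rhythm was called under DRF (adjusted p = 0.0283, peak at ZT22.5 ± 1.23 h, amplitude 0.24 ± 0.07) and not under NRF (adjusted p of 1). Without those libraries the DRF rhythm had an adjusted p of 0.000149, and 0.011 by the cosine test. With them it was not called by the cosine test (0.061), on the deposited values as they stand (0.875), without ZT24 (0.163) or without replicates 1, 2 or 3 in turn (0.118 to 0.842). The difference in profile was likewise lost on the deposited values (0.134), without ZT24 (0.134) or without those replicates (0.0964 to 0.163). Of the 8 adipocyte markers, 0 were higher (beside 11.4% of all genes) and 1 (Plin4) lower (beside 10.3%) under DRF in the 24-h mean by limma. Their sum ran from 17472 to 31277 CPM under NRF (median 23987) and from 10241 to 36693 CPM under DRF (median 26989). At ZT12 the sum was 19467, 18599, 19944 and 21159 CPM under DRF and 31277, 24721, 30014 and 24622 CPM under NRF. These sums did not overlap, but those at ZT8 and ZT16 did. At ZT20 the DRF sums, with 24823, 35105, 29390 and 32044 CPM, lay above the NRF sums of 19324, 21561, 22553 and 20145 CPM. At ZT24 the DRF sums, with 30706, 31277, 36693 and 31489 CPM, also lay above all NRF sums. The part of these markers in the Adipoq results was not tested.

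Rbp4 (ENSMUSG00000024990, chr19:38116629-38125281, - strand), the carrier of retinol in blood, showed the opposite change. Its 24-h mean was 0.39 ± 0.08 higher under DRF, or 1.31-fold (adjusted p = 0.000196), and 0.46 ± 0.06 higher without the epithelial libraries (5.54e-08). The lowest, median and highest values were 421, 845 and 1101 CPM under DRF and 308, 601 and 844 CPM under NRF. DRF exceeded NRF at 7 of 7 time points, of which ZT4 (0.63 ± 0.20, adjusted p = 0.0213) and ZT8 (0.60 ± 0.20, 0.0311) were called. At ZT4 the DRF mice had 838, 891, 941 and 1101 CPM and the NRF mice 751, 597, 565 and 536 CPM, without overlap. At ZT8 the DRF values were 421, 785, 852 and 802 CPM, of which the lowest belonged to the epithelial library, and the NRF values were 499, 308, 544 and 506 CPM. With all libraries the ZT8 groups overlapped through that 1 DRF mouse, and without the epithelial libraries the difference was 0.84 ± 0.17 (adjusted p = 0.000264). Both calls were lost without replicates 2, 3 or 4 in turn, and at ZT8 the difference was 0.35 (0.422) without replicate 2 and not called on the deposited values (0.139). The ZT4 call was also lost with scaling by library totals (0.44, adjusted p = 0.0577). The 308 CPM belonged to NRF ZT8 replicate 2, which had the highest sums of macrophage (1825 CPM) and lymphocyte markers (31.0 CPM) of all libraries, whose part in the result was not tested. No rhythm of Rbp4 was called by the combined test (adjusted p of 0.146 under NRF and 1 under DRF), but the cosine test called it under NRF (0.0493). Although the profile did not pass the test with all libraries (adjusted p = 0.364), it differed without the epithelial libraries (0.0341). DRF was also higher in 6 of 6 contrasts at times 12 h apart, called at DRF ZT20 against NRF ZT8 (0.82 ± 0.20, adjusted p = 0.00626), a value of 0.57 and not called (0.313) without replicate 2. Without the epithelial libraries Rbp4 was also called at DRF ZT0 and ZT24 against NRF ZT12 (0.60 ± 0.14, adjusted p = 0.00296) and at DRF ZT16 against NRF ZT4 (0.44 ± 0.15, 0.0487). At the same clock time, ZT24 was then called as well (0.57 ± 0.15, adjusted p = 0.00803, against 0.0562 with all libraries, and 0.0335 to 0.0483 under other scalings or a minimum of 1 CPM), and so was the shift of the fitted peak (6.30 ± 2.18 h, 0.0143, against 3.91 ± 3.91 h, 0.464). In that setting the cosine test called a rhythm under NRF (adjusted p = 0.0046), and the combined test called none.

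The liver is a major source of RBP4 and angiotensinogen, and NRF ZT24 replicate 4 held liver transcripts. Its 6 liver markers (Alb, Apoa1, Ttr and others) summed to 1667 CPM, against at most 78.2 CPM in any other library. Rbp4 was at 733 CPM in that library and at 553, 537 and 678 CPM in the other NRF mice at ZT24, while Agt was at 73.1 CPM there and at 70.8, 161 and 61.8 CPM in the others. Leaving the library out moved neither the call for the Rbp4 mean nor any other call on Rbp4 or Agt. Over all libraries, 0 of 6 liver markers were higher and 0 lower under DRF in limma, of which 1 (Ttr) had a median of 0. These tests included NRF ZT24 replicate 4, with Alb at 1385 CPM against a median of 29.7 CPM. They therefore cannot decide whether the markers were higher under DRF. The liver sum had a median of 36.4 CPM under DRF and 24.9 CPM under NRF. At ZT12 the lowest DRF sum, 25.6 CPM, lay above the highest NRF sum, 22.2 CPM. The groups overlapped at the other time points. The part of these markers in the Rbp4 and Agt results was not tested.

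Rarres2 (ENSMUSG00000009281, chr6:48569696-48572789, - strand) encodes chemerin, which attracts immune cells through its receptor Cmklr1. Its exons overlap those of Lrrc61 on the opposite strand, and the library kit does not mark strand, so reads there cannot be assigned with certainty. The 24-h mean was lower under DRF by 0.25 on the log2 scale (-0.25 ± 0.07, adjusted p = 0.0116), and lost its call without replicate 1 (-0.22, 0.105) or replicate 2 (-0.19, 0.111). The highest Rarres2 value, 205 CPM, belonged to NRF ZT8 replicate 2, the library with the highest macrophage and lymphocyte sums. The part of that library in the result was not tested. At ZT4 the DRF mice had 69.6, 75.7, 63.6 and 86.8 CPM and the NRF mice 116, 138, 137 and 110 CPM. The groups were apart, and the level was 1.69-fold lower under DRF (-0.76 ± 0.19, adjusted p = 0.00393). At the other 6 time points the groups overlapped and no difference was called, with log2 differences from -0.37 to 0.05. Without replicate 3, ZT8 was called (-0.69, adjusted p = 0.0176). The difference in profile (adjusted p = 0.0945) was called without replicate 3 (0.0056) and with scaling by library totals (0.0474). That scaling also called Rarres2 lower at DRF ZT4 against NRF ZT16 (-0.59, adjusted p = 0.0371, against -0.46 and 0.114 in the main setting). In the same libraries 4 of 8 mesothelial markers and 4 of 6 macrophage markers were lower in the mean under DRF (beside 10.3% of all genes) and 0 higher (beside 11.4%). The mesothelial sum ran from 295 to 799 CPM under NRF and from 238 to 731 CPM under DRF, and the macrophage sum from 724 to 1825 and from 606 to 1205 CPM. At ZT4 the mesothelial sum was 314, 385, 427 and 481 CPM under DRF and 571, 799, 779 and 516 CPM under NRF, without overlap. The macrophage sums at ZT4 overlapped. None of these 14 markers had a median of 0, and their part in the result was not tested.

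Agt (ENSMUSG00000031980, chr8:124556534-124569706, - strand) encodes the precursor of the angiotensin peptides, which raise blood pressure. It was the member with the largest spread between mice of a group under DRF, with an SD of 0.74 on the log2 scale, against 0.54 under NRF. At ZT8 the DRF mice had 16.6, 70.6, 157 and 41.1 CPM and the NRF mice 76.7, 260, 92.5 and 150 CPM. The difference of -1.27 ± 0.44 was called (adjusted p = 0.0398), but the groups overlapped, the 16.6 CPM came from the epithelial library, and without the epithelial libraries it was -0.74 ± 0.43 (adjusted p = 0.254). The call was also lost on the deposited values (0.0585) and without replicates 1, 2 or 4 in turn (0.172 to 0.245), and the value was -1.95 (0.00199) without replicate 3. The 260 CPM belonged to NRF ZT8 replicate 2, the library with the highest macrophage and lymphocyte sums. At ZT20 the direction was the other way, with 114, 137, 126 and 133 CPM under DRF and 57.5, 48.0, 125 and 58.5 CPM under NRF. That difference of 0.91 ± 0.44 was not called (adjusted p = 0.190). The 24-h profile differed between regimens (adjusted p = 0.00552, 0.0109 without the epithelial libraries, and 0.131 or 0.0508 without replicates 1 or 2), while the combined test called no rhythm in either (adjusted p of 1 under NRF and 0.154 under DRF, where the cosine test gave 0.0122) and the mean did not pass the test (-0.28 ± 0.17, 95% interval -0.62 to 0.06).

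Retn (ENSMUSG00000012705, chr8:3655770-3660110, + strand), the gene of resistin, which in mice is made by adipocytes, passed none of the tests. Its lowest, median and highest values were 910, 2026 and 2618 CPM under DRF and 1382, 1903 and 2482 CPM under NRF. The regimens overlapped at all 7 time points. The 24-h mean differed by 0.02 ± 0.08 on the log2 scale, with a 95% interval of -0.15 to 0.18 (adjusted p = 0.919), and the largest difference at a single time point was 0.29 ± 0.21 at ZT4. A rhythm was not called under NRF (adjusted p = 0.0927) or DRF (adjusted p of 1). Its lowest DRF value again belonged to the epithelial library at ZT8.

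**Figure D4:**
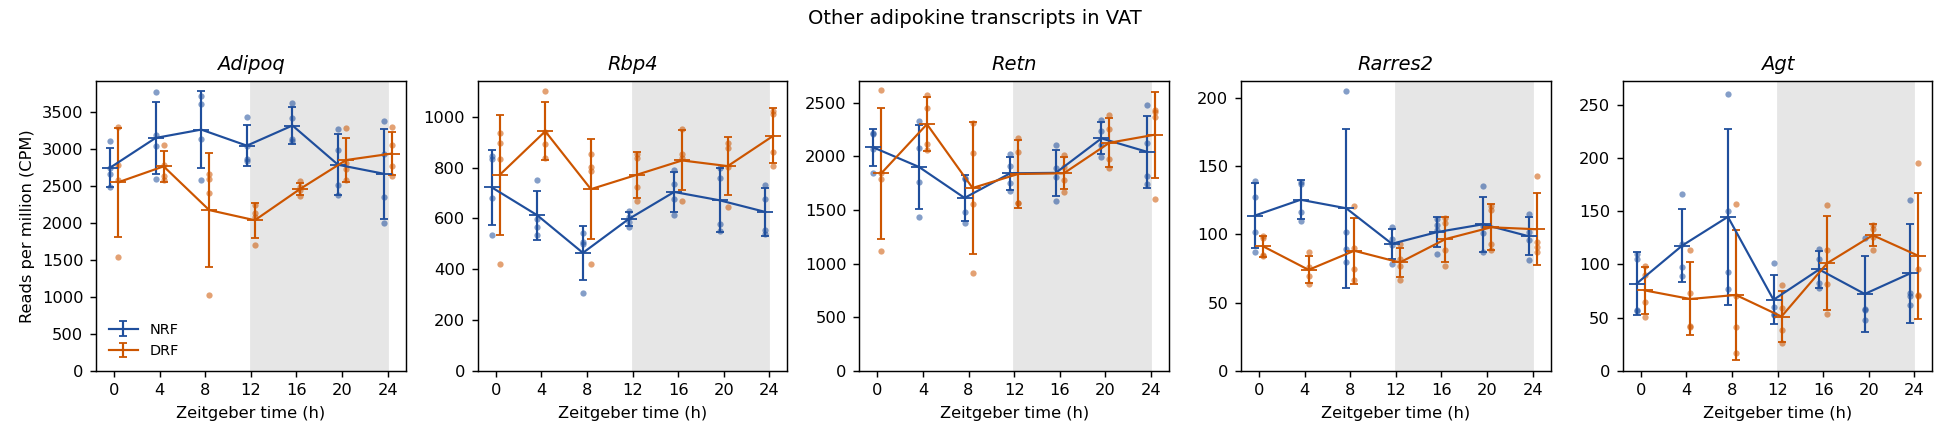
The other 5 members in VAT. Points are single mice (NRF blue, DRF orange) against zeitgeber time, lines join group means, bars are SD (n = 4) and grey marks darkness. Adipoq runs lower and Rbp4 higher under DRF for much of the day, Retn overlaps throughout, and Agt has wide bars at ZT8.

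Over the 49 pairs of member and time point, the 4 DRF and the 4 NRF values did not overlap in 15, beside 17.4% of pairs over all genes. Apln had 5 such time points, Lep 4, Rbp4 3, Adipoq 2, Rarres2 1 and Retn and Agt 0. The SD between mice of a group was 0.54 (NRF) and 0.66 (DRF) for Lep and 0.55 and 0.46 for Apln on the log2 scale. For Adipoq it was 0.21 and 0.33, and for Retn 0.19 and 0.34, so the differences a group of 4 could show were smaller for these steadier genes.

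**Figure D5:**
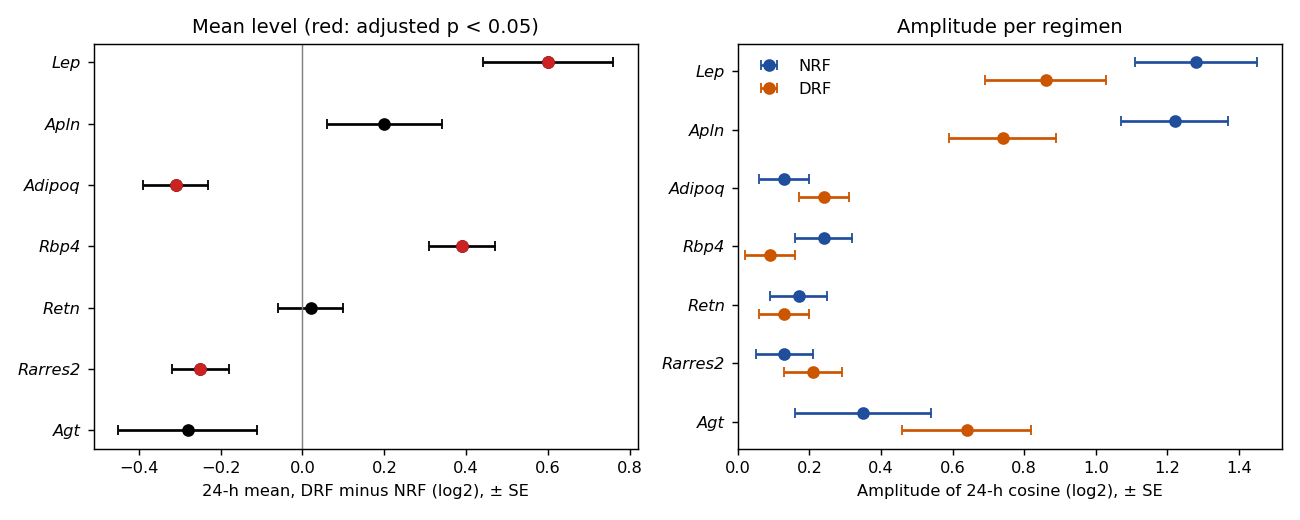
Mean level and amplitude of 7 members. Left: difference of the 24-h mean, DRF minus NRF, on the log2 scale with SE, in red where the adjusted p was under 0.05. Right: amplitude of the 24-h cosine per regimen with SE. Lep and Rbp4 lie right of 0 and Adipoq and Rarres2 left of it, and Lep and Apln have the widest swings under NRF.

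The genes whose 14 group means followed each member most closely were named by Pearson r among genes of at least 10 CPM. For Lep they were Trp53inp2 (0.974), Ppp1r3b (0.968) and Plxna1 (0.959). For Apln they were Usp10 (0.984), Xpot (0.981) and Ythdf2 (0.977). Adipoq was followed by Sqor (0.964), Car3 (0.957) and Ces1d (0.928), and Rbp4 by Ube2a (0.956), Tmem50b (0.949) and Ube2k (0.946). Retn was followed by Mrps15 (0.933), Mrpl30 (0.922) and Uqcrb (0.916), of which the first pair encode mitochondrial ribosomal proteins and the last a respiratory chain subunit. Rarres2 was followed by Efemp1 (0.956), Man1a (0.915) and Dpp4 (0.910), and Agt by Tmem140 (0.896), Osr1 (0.880) and Sgce (0.872). Each r is over 14 points that share libraries, depth and scaling.

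Of the receptors and processing proteins of these hormones, 31 of 32 listed genes had a row. In the 24-h mean, 3 were higher (beside 11.4% of all genes) and 3 lower (beside 10.3%) under DRF, their median log2 difference was -0.03, beside 0.00 over all genes, and 7 were under 1 CPM. By rhythm, 9 of 31 were called under NRF (beside 26.1% of all genes), 5 under DRF (15.3%) and 3 under both (9.63%), and 11 had a different profile between regimens (36.0%). All of these counts lay near the shares over all genes.

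Among receptors of the fat-derived hormones, the leptin receptor Lepr was rhythmic under NRF (adjusted p = 0.000957, amplitude 0.43, peak at ZT13.1) and not called under DRF (adjusted p of 1, amplitude 0.12), and the profiles differed (adjusted p = 0.00599). Its mean was lower under DRF by 0.23 on the log2 scale (-0.23 ± 0.09, adjusted p = 0.0449). The adiponectin receptor Adipor2 was rhythmic under DRF (adjusted p = 0.000977, peak at ZT22.9, amplitude 0.38) and not called under NRF (0.357), with different profiles (1.26e-05). Adipor1 had a small rhythm under NRF (adjusted p = 0.0264, amplitude 0.10, but 0.0763 by the cosine test) and a mean higher under DRF by 0.13 ± 0.04 (0.00812). Under DRF its rhythm was called by the cosine test (0.0283, amplitude 0.12) but not by the combined test (0.658), and the profiles differed (0.00167). Cdh13, encoding T-cadherin, which binds adiponectin, was higher under DRF by 0.20 ± 0.06 (adjusted p = 0.00882).

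Transcripts for proteins that fold and release adiponectin were Ero1a, Erp44 and Gstk1. Ero1a, an oxidase of the endoplasmic reticulum, was rhythmic under NRF (adjusted p = 0.000123, amplitude 0.17, but 0.244 by the cosine test) and not called under DRF (adjusted p of 1), the difference in profile was not called (0.394), and its mean difference of 0.18 ± 0.08 was not called. Erp44 and Gstk1 were not called in mean, rhythm or profile, with mean differences of -0.04 ± 0.03 and -0.09 ± 0.06. For apelin, the receptor Aplnr had a different profile between regimens (adjusted p = 0.00316) with no rhythm called in either by the combined test (1 and 0.167), although the cosine test called one under DRF (0.00681), and the second ligand Apela was at 0.0163 CPM.

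Of the chemerin receptors, Cmklr1 and Gpr1 were rhythmic under both regimens and shifted. Cmklr1, the signalling receptor, peaked at ZT17.5 under NRF and at ZT8.52 under DRF, 8.99 ± 0.999 h apart (rhythm adjusted p of 0.000458 and 0.0295, shift adjusted p = 6.88e-11). Gpr1 peaked at ZT10.9 and ZT19, 8.13 ± 1.09 h apart (rhythm adjusted p of 0.000302 and 0.00310, shift 1.03e-08), at a mean of 1.77 CPM. Ccrl2, which binds chemerin without signalling, was lower under DRF (-0.30 ± 0.07, adjusted p = 0.000689).

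Of the genes that process or receive angiotensin, Enpep, encoding aminopeptidase A, was higher under DRF by 0.58 ± 0.13 on the log2 scale, or 1.5-fold (adjusted p = 0.000506). Agtr1a, the main angiotensin receptor, was rhythmic under NRF (adjusted p = 1.29e-05, peak at ZT7.38) and under DRF was called by the cosine test (0.00106, peak at ZT22.0) but not by the combined test (0.0573), and its profile differed between regimens (2.56e-07). The converting enzyme Ace was rhythmic under both regimens (adjusted p of 0.000225 and 0.0260) with peaks at ZT15.7 and ZT16.9, a shift of 1.25 ± 1.27 h that was not called (0.471). Renin (Ren1) was at 0.232 CPM, Agtr1b at 0.0266 and Agtr2 at 0.791 CPM, and no rhythm of them was called. The prorenin receptor Atp6ap2 had a different profile (adjusted p = 0.0272), and neprilysin (Mme) and chymase (Cma1) were not called in the mean or the profile.

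Among reported resistin receptors, Cap1 was rhythmic under NRF (adjusted p = 0.00102, amplitude 0.11) and its profile differed between regimens (1.12e-05), as did that of Tlr4 (0.00625). The resistin-like gene Retnla was lower under DRF (-0.37 ± 0.09, adjusted p = 0.00155), and Retnlg, at 1.29 CPM, was not called. For Rbp4, the receptor genes Stra6 and Stra6l were at 1.17 and 0.457 CPM and the retinol enzyme Lrat at 0.658 CPM, and none was called in the mean or the profile. Transthyretin (Ttr), the partner of RBP4 in blood, had a median of 0 and a highest value of 78.7 CPM, in the library with liver transcripts (NRF ZT24 replicate 4).

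Of 35 other secreted factors of fat, 34 had a row. In the mean, 3 were higher (beside 11.4% of all genes) and 9 lower (beside 10.3%) under DRF, with a median log2 difference of -0.02, beside 0.00 over all genes. By rhythm, 14 were called under NRF (beside 26.1% of all genes), 7 under DRF (15.3%) and 7 under both (9.63%), and 14 had different profiles (36.0%). Adipsin (Cfd), the complement factor D of adipocytes, was lower under DRF by 1.37 on the log2 scale (-1.37 ± 0.14, adjusted p = 1.59e-10), a 2.58-fold lower level. Igf1 (-0.48 ± 0.07, adjusted p = 5.96e-07), Slit2 (-0.49 ± 0.08, 3.99e-06) and C1qtnf1 (-0.39 ± 0.06, 1.43e-06) were lower as well. Igf1 encodes a growth factor and Slit2 a guidance protein.

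Nrg4, Angptl4 and Fgf21 were among the factors with the clearest difference in profile. Nrg4, a ligand of ErbB receptors, peaked at ZT12.8 under NRF and at ZT22.9 under DRF (difference in profile, adjusted p = 5.44e-17). Angptl4, an inhibitor of lipoprotein lipase, peaked at ZT4.41 and ZT19.6 (2.66e-09). Fgf21, a hormone of energy balance, peaked at ZT20.4 and ZT6.33 (1.29e-08), at a mean of only 1.44 CPM. These 3 were rhythmic under both regimens, with adjusted p from 7.82e-09 to 0.02.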

How the data were processed

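The members, gene lists and markers were chosen with earlier results of these data known. The authors extracted RNA with Trizol and made poly-A libraries with an NEBNext Ultra kit, which does not mark strand. The submitters' processing notes name mm10, HISAT2 2.0.5 and featureCounts 1.5.0-p3. The deposited values are named TPM, but by their steps they are a score: log2(CPM + 1) divided by exon length and rescaled per library. Whole reads were recovered from these steps: 99.9925% of 1424971 values of at most 10000 reads came out whole within 0.02 reads. The exon length of Rbp4 was taken from the values (1297 bases), those of the other members from GENCODE M21. Scd1 could not be resolved and was left out, which left 25938 genes tested.

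CPM were recovered reads over the library size that the deposited values imply. All tests used log2(CPM + 1), which understates changes of low genes, with Benjamini-Hochberg adjustment over all genes and a threshold of 0.05. P-values of JTK_CYCLE and Lomb-Scargle at 24 h were merged after MetaCycle (Fisher), and cosines were fitted after CircaCompare. Python 3.11.15 was used, together with scipy 1.17.1, pandas 2.3.3 and numpy 2.4.6. Mean level, difference in profile and contrasts between groups were tested in limma 3.58.1 (R 4.3.3) with an intensity trend, without a block for replicate number. Tests are two-sided, and 95% intervals use residual degrees of freedom. The scripts were tested on simulated data. The labels do not say that replicates of a group came from separate cages, so p-values measure the spread between these mice. No 2 libraries of a group agreed within sampling noise (chi-square per degree of freedom of at least 15.3).

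All members were named, with the 3 genes of highest r for each, the partners of a member, and otherwise up to 4 genes of smallest adjusted p per list. Some list genes that this rule names are not reported here, though the list counts include them. Alternatives were the deposited values, a pseudocount of 0.1 CPM, other scalings, a minimum of 1 CPM, leaving out ZT24, single libraries or replicate numbers, a replicate block, and other tests. Recovered library totals as scaling and the omission of NRF ZT24 replicate 4 were chosen after seeing the data.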

Additional observations from a re-analysis of the deposited data

Results flagged for a closer look

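In 98 sets of 4 mice (7 members in 14 groups), 1 mouse stood far from the other 3 in 6 sets, by the share of the group's range that its gap to the nearest mouse took. Chance gives about 1 in 20. These were Adipoq in DRF ZT8 replicate 1 (0.895), Retn in DRF ZT24 replicate 1 (0.937), Rbp4 in DRF ZT0 replicate 4 (0.856), DRF ZT8 replicate 1 (0.885) and NRF ZT8 replicate 2 (0.850), and Rarres2 in DRF ZT24 replicate 3 (0.830). Of the 6, 3 came from the libraries with epithelial markers.

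The 24-h profile differed between the regimens, by the interaction test in limma, for Apln (adjusted p = 1.21e-10), Lep (7.26e-10), Agt (0.00552) and Adipoq (0.0245). For Lep and Apln the fitted differences were above 0 from ZT4 to ZT12 and below 0 at ZT0 and from ZT16 to ZT24.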

How the results depend on the processing

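No called difference in level changed sign under any alternative that was run. The fitted shifts of Adipoq, which had no rhythm called under NRF, and of Apln lay near 12 h. On the 24-h clock they turned from later to earlier in some settings (Adipoq 11.7 h, -10.9 h without the epithelial libraries). Rhythm under NRF (2 members), mean level (4) and phase shift (5) kept counts within 1.5 times under all of them, and amplitude differences stayed at 0. Rhythm under DRF was called for 3 members, for 1 on the deposited values and without ZT24, and for 0 to 2 without 1 replicate number each, where the 2 were Agt and Rarres2, neither of them among the 3. Differences in profile (4) came to 2 to 4, same-time differences (15) to 7 to 10 (16 without the 2 epithelial libraries), and contrasts 12 h apart (2) to 0 to 2, without 1 replicate number each. The contrasts 12 h apart came to 1 on the deposited values and with no intensity trend, and to 6 without DRF ZT8 replicate 1 and DRF ZT0 replicate 4. Without NRF ZT24 replicate 4 the counts were 2 (NRF rhythm), 3 (DRF rhythm), 4 (profile), 4 (mean), 5 (shift), 14 (same time) and 2 (12 h apart). The cause of these moves was not tested, except that fewer mice entered where a replicate was left out. Deviations of same-numbered DRF and NRF mice at the same time point had correlations from -0.37 to 0.37, with 11 of 28 over 0.1. That check cannot see a batch that runs across time points within a regimen. Under DRF, replicate 1 had the lowest mesothelial sum of its group at every time point (238 to 438 CPM). Under NRF it had the highest at ZT0 (735 CPM). The part of this pattern in the results was not tested. The replicate block, shared by both regimens, gave counts of 4, 4, 15 and 2 for mean, profile, same-time and 12-h contrasts, equal to those without it.

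Over all genes, leaving out 1 replicate number lowered rhythms under DRF from 3973 to 2014 to 2505 and under NRF from 6778 to as few as 4085, and amplitude differences from 373 to as few as 80. The limma cosine test called 6929 genes under DRF, and leaving out the epithelial libraries gave 572 amplitude differences.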

Other observations

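The ratio of Lep to Adipoq, compared per length within each mouse, is a description of 2 transcripts and not of the proteins. Its median was lowest under NRF at ZT8 (0.0254, from 0.0167 to 0.0518) and highest under DRF at ZT12 (0.270, from 0.166 to 0.315). At ZT20 it was 0.171 (0.105 to 0.217) under NRF and 0.0710 (0.0428 to 0.0998) under DRF, without overlap between the regimens.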
